A study of Mus musculus with 5 samples.

Results

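Transcripts of splenic macrophages and monocytes were measured in regulatory T cell (Treg) preparations. The set holds 35 genes, found by symbol among the 48440 genes of the deposited table, each in 1 row. They are the chains of complement C1q, surface receptors, Fc receptors and their adaptors, and factors of macrophages and monocytes, chosen so that red pulp, marginal zone and monocyte genes can be set against each other. The choice was made with earlier results of the knockout against wild-type difference known, so that difference is given for these genes as a description. RNA came from CD4+CD25+ cells, taken fresh and untreated from the spleens of C57B/6 mice on a high fat diet with a magnetic bead kit for Tregs. There were 2 libraries from wild-type mice (WT) and 3 from mice whose genotype is labelled CD4-KLF10-KO and described as a CD4-specific T cell knockout of KLF10 (KO). Strain, diet and isolation were the same in both groups. Sources used here do not give the driver of the deletion, the deleted part of Klf10 or the ages. The labels do not say whether each library is 1 mouse, so any p-value measures the spread between libraries, which may be technical. The first letter of the library code differs between WT (A) and KO (B), and what it stands for cannot be told apart from genotype.

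Macrophages of the spleen differ by place. Red pulp macrophages carry F4/80 (Adgre1) and VCAM-1, depend on the transcription factor SPIC, and clear aged red cells and recycle their iron. Marginal zone macrophages take up blood-borne particles through the scavenger receptor MARCO and the lectin SIGN-R1 (Cd209b), and metallophilic macrophages beside them carry CD169 (Siglec1). Classical monocytes carry Ly6C and CCR2, and patrolling monocytes have little Ly6C, carry CX3CR1 and express the Fc receptor FcγRIV. C1q is the recognition part of the classical complement pathway and is made largely by macrophages and dendritic cells.

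Total counts per library ranged from 25622614 to 30521797, and all 35 genes had enough counts to enter the test, together 14460 genes. The targeted gene Klf10 was measured at 22.0 and 22.6 CPM (counts scaled to library size with TMM factors) in WT and at 16.0, 12.6 and 8.87 CPM in KO, lower in every KO library, with a log2 change of −0.84 (SE 0.22, adjusted p = 0.136 by edgeR and 0.0195 by DESeq2). The Treg factor Foxp3 was between 474 and 577 CPM in every library, and none of the 6 Treg markers was at 0. The Treg, pan-T, B cell and erythroid lists held 6, 14, 8 and 11 tested genes. Of these edgeR called 0, while 1, 10, 0 and 11 had an unadjusted p under 0.05 and DESeq2 called 1, 6, 0 and 11. These were lower in the T cell lists and higher in the erythroid one. Of all genes tested, edgeR called 0.284%, and 10.7% were higher and 5.62% lower at an unadjusted p under 0.05. DESeq2 called 5.62% of all genes higher and 1.45% lower. Summed over 14 pan-T cell genes, the level was 4145 and 3547 CPM in WT and 3094, 3200 and 3162 CPM in KO. Markers of red cell precursors and red cells were higher in KO, with a summed level of 20551 and 14610 CPM in WT and 91484, 55557 and 55608 CPM in KO. All 11 were above both WT libraries in every KO library, where 17.6% of all genes tested were. The 8 B cell markers summed to 2430 and 3504 CPM in WT and to between 2839 and 2939 CPM in KO, so they overlapped. The part of the erythroid and pan-T cell differences in the results below was not tested. In bulk RNA, fewer cells of a type and less RNA per cell cannot be told apart.

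The start regions of these genes show which of them share a sequence core of myeloid factors. RefSeq start sites (GRCm38.p6) were matched for 24 of the 35 genes, and the 250 bases before the start were searched on both strands. Vcam1, Msr1, Tgm2, Itgad, Csf1r, Adgre1, Sirpa, Cd14, C1qa, Siglec1 and Tyrobp were not matched. The core AGGAAGT, bound by the myeloid factors PU.1 and SPIC and shared with other ETS factors, was found in 8 of the 24 (33.3%), against 8.80% of the 27025 genes with such a window. These 8 genes were C1qb, C1qc, Fcgr1, Fcgr4, Fcna, Ly6c2, Lyz2 and Mrc1. The C/EBP motif TTGCNNAA was found before 3 genes (12.5% against 10.8% of all), the MAF core TGCTGAC before 2 (8.33% against 4.31%) and the TFE3 and MITF motif TCACGTG before 0 of 24 (against 3.58% of all). None of the 4 motifs is a part of another, though motifs can lie in 1 window, as before Fcna. A match is a description of letters and not a measured binding site. Of the genes with a window, 7 are shown, namely 2 of the neighbouring C1q genes, the gene with the highest fold (Fcgr4), the most abundant gene per length (Lyz2), Fcna with its 2 motifs, Cd68 with a C/EBP motif, and Ccr2, which had none of the 4 and the lowest fold. They run 5′ to 3′ on the gene's own strand and end 1 base before the start, with motif matches in capitals (ACTTCCT is AGGAAGT read on the other strand). Their places are chr4:136886201-136886450 and chr4:136892915-136893164 (both minus strand), chr1:171018676-171018925 (plus), chr2:25627975-25628224 (minus), chr10:117282273-117282522 (minus), chr11:69666171-69666420 (minus) and chr9:124101933-124102182 (plus).
C1qb: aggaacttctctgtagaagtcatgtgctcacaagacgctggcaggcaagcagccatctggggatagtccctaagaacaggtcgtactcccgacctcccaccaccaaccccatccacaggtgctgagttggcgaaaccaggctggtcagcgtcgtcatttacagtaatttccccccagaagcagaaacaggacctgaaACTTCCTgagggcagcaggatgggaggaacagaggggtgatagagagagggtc
C1qc: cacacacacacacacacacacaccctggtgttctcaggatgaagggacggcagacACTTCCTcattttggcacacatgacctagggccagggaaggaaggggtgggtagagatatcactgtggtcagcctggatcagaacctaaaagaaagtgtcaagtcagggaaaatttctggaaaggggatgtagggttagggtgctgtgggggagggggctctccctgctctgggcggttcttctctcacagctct
Fcgr4: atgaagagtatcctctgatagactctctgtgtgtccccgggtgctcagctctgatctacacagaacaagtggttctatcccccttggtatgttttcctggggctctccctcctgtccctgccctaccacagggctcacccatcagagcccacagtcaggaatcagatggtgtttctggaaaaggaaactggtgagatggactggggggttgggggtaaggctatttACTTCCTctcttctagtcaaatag
Fcna: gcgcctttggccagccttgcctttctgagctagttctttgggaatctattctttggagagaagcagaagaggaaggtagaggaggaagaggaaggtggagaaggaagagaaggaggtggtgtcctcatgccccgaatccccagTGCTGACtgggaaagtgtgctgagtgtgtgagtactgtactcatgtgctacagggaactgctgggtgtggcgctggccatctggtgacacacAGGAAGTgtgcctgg
Lyz2: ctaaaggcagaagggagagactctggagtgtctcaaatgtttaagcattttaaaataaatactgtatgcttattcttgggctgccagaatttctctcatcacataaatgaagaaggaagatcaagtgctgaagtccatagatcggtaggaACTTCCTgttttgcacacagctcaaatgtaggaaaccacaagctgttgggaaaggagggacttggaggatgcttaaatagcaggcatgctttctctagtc
Cd68: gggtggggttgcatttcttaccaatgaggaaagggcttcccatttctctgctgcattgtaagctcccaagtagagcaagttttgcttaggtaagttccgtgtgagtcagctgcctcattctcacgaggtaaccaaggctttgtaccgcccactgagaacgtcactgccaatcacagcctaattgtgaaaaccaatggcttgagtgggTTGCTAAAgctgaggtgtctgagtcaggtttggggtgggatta
Ccr2: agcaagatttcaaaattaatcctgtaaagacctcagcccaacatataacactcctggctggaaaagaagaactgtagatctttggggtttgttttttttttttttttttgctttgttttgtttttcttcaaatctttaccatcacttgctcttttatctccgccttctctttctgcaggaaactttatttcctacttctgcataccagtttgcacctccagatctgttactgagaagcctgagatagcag
C1qb and C1qc both hold the PU.1 core. Some genes had more than 1 start, and 23 of the 27 windows read into a GENCODE transcript of their gene. The windows of Ly6c2, Clec12a and Hpgd did not, so the matches counted for Ly6c2 (PU.1 core) and Clec12a (C/EBP) may not lie before the start of the counted transcripts. The same holds for Fcgr3 and for the PU.1 core of Fcna. Their deposited gene spans, on the minus strand, reach 171064935 and 25628030 and so hold these matches. Most of the Ccr2 window also lies within its gene span, which begins at 124101950.

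Most of the 35 genes were higher in KO, 19 of them by more than 2-fold. For 32 of the 35 genes every KO library was higher than both WT libraries, a pattern that 17.6% of all genes tested had. The exceptions, with overlapping groups, were Ccr2, Ly6c2 and Msr1. The median log2 change was 1.09, beside −0.01 over all genes tested, and 34 of the 35 changes were above 0. By the test over all genes (edgeR quasi-likelihood, Benjamini-Hochberg adjustment, false discovery rate of 0.05) 8 of the 35 were called higher in KO, namely Fcgr4, Sdc3, Cd68, Adgre1, Aif1, C1qc, Tgm2 and Cebpa, where 0.228% of all genes were and 0.284% were called in either direction. Called lower were 0 of the 35 by edgeR, where 0.0553% of all genes were, and 0 by DESeq2, where 1.45% were; at an unadjusted p under 0.05 the number was also 0, where 5.62% were. An unadjusted p under 0.05 was reached by 31 of the 35, all higher in KO, where 10.7% of all genes reached it in that direction. DESeq2 called 29 of the 35 higher, where it called 5.62% of all genes higher. Because the choice of genes knew this difference, these shares are a description. The count of 8 moved with single libraries. It was 18 without KO replicate 1, and 0 without KO replicate 2 or KO replicate 3. Without KO replicate 2, 31 of the 35 were higher at an unadjusted p under 0.05, as were 1299 of all 14354 genes tested. Without KO replicate 3, these numbers were 30 of the 35 and 1584 of 14274. Leaving out WT replicate 1 or WT replicate 2 leaves 1 WT library, and the median log2 change of the 35 was then 1.23 or 0.86.

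**Figure D1:**
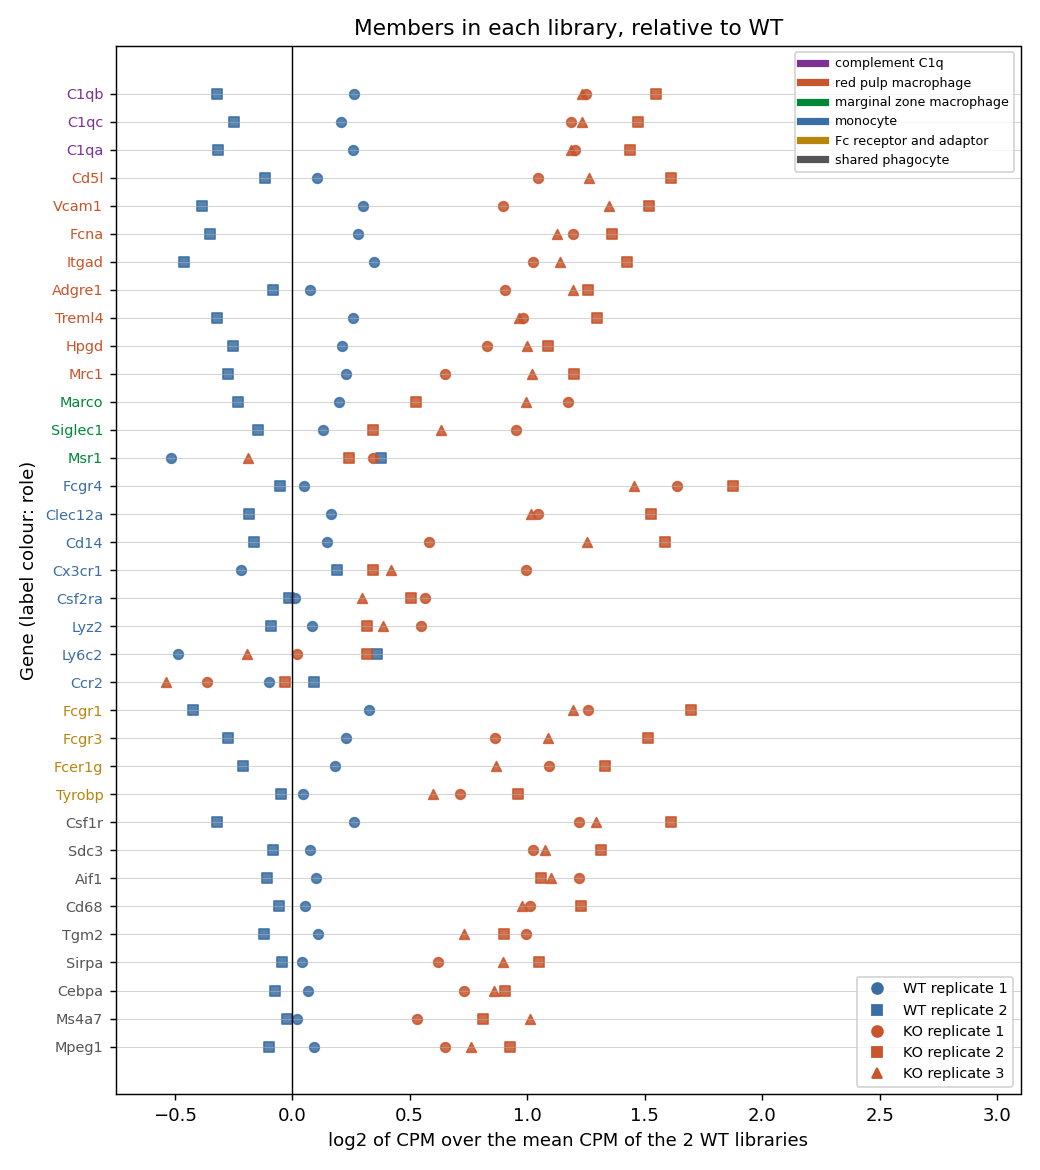
Each of the 35 genes in each library, as log2 of CPM over the mean of the 2 WT libraries (x axis), with genes on the y axis grouped and coloured by role; blue points are WT and orange points KO, with circles, squares and triangles for replicates 1, 2 and 3. KO points lie to the right of both WT points for 32 genes, and Ccr2, Ly6c2 and Msr1 overlap.

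Summed, the 35 genes made up 0.136% and 0.107% of all counts in the WT libraries and 0.211%, 0.274% and 0.236% in the KO libraries, so the groups did not overlap. Within WT, replicate 1 was above replicate 2 for 31 of the 35 genes. Within KO, replicate 2 was the highest for 26 genes, replicate 1 for 8 and replicate 3 for 1. The libraries of 1 group therefore also differed by amounts that most of the genes shared. The erythroid sum was instead highest in KO replicate 1, and its part in these values was not tested. By transcript share (deposited TPM), Lyz2 made up 17.7% and 19.7% of the sum over the 35 genes in WT and 14.3%, 10.5% and 12.7% in KO.

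Levels of different genes were compared per gene length, on the deposited RPKM scale. Lyz2, the lysozyme of myeloid cells, was the highest, at 89.1 and 80.4 RPKM in WT and 117, 105 and 109 RPKM in KO. C1qa followed at 43.7 and 29.8 RPKM in WT and 79.97, 99.03 and 82.8 RPKM in KO. At the other end, the scavenger receptor gene Msr1 was between 0.068 and 0.129 RPKM, with 15 to 24 counts per library, and Ms4a7, a membrane protein of monocytes and macrophages, was between 0.191 and 0.382 RPKM. Counts of at least 100 in every library were reached by 30 of the 35 genes. For Msr1 and Ms4a7 only large differences could be detected at this depth.

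**Figure D2:**
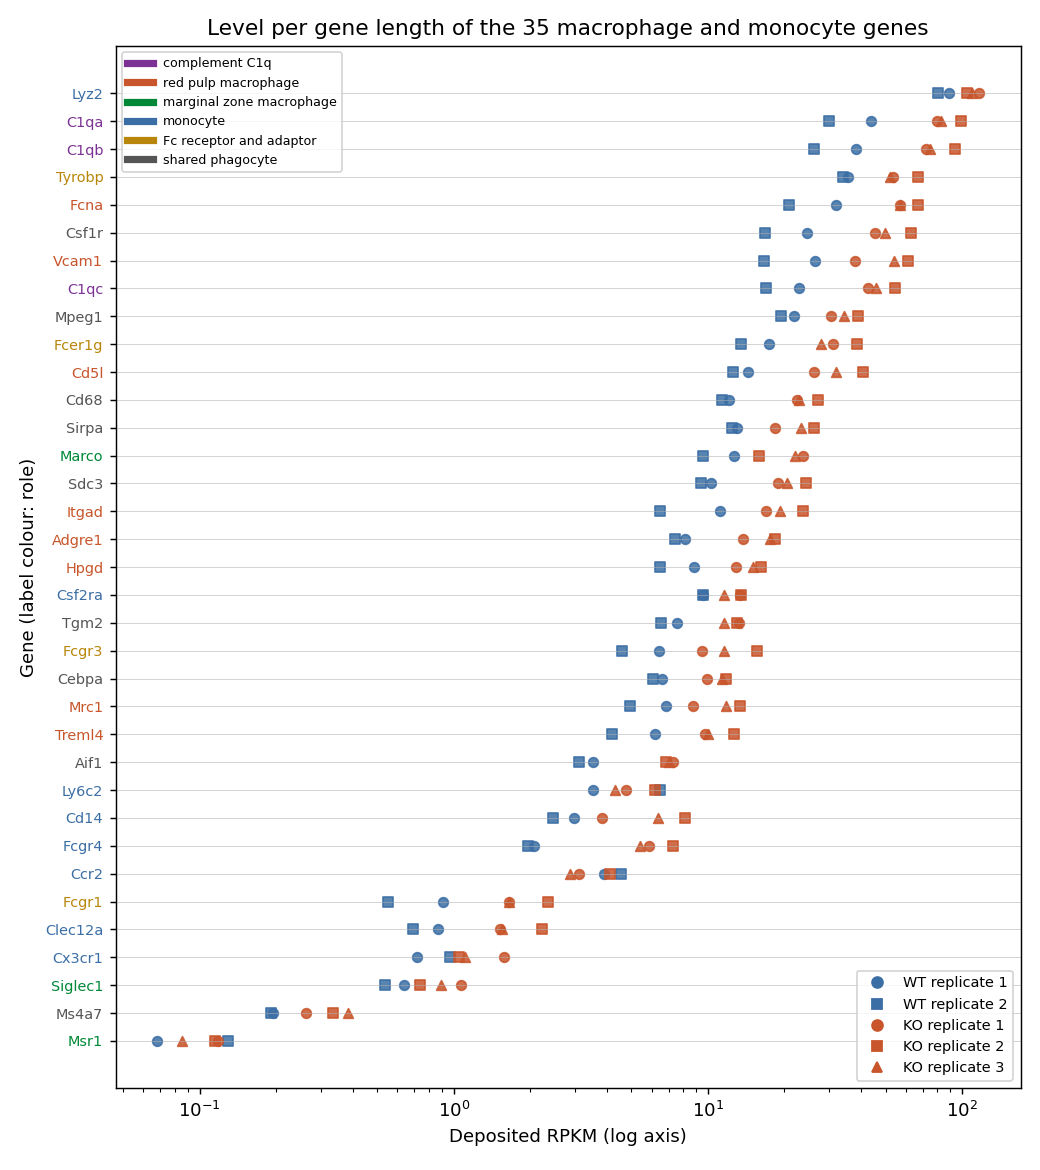
Level per gene length of each gene in each library (x axis, deposited RPKM, log axis), with genes ordered by their mean level on the y axis and label colours for roles; blue is WT, orange KO. Levels range from about 0.068 RPKM for Msr1 to 117 RPKM for Lyz2, and C1qa and C1qb stand next to Lyz2.

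The chains of C1q were higher in KO together and in similar proportion to each other. C1qa, C1qc and C1qb are neighbours on the minus strand of chromosome 4 between 136880129 and 136898803 (GRCm38), and each codes for 1 chain of C1q. C1qa was at 52.2 and 34.97 CPM in WT and at 100.3, 118 and 99.3 CPM in KO (log2 change 1.28, SE 0.18). C1qb was at 47.9 and 31.9 CPM in WT and at 94.9, 117 and 93.8 CPM in KO (log2 change 1.35, SE 0.19). C1qc was at 50.4 and 36.8 CPM in WT and at 99.2, 121 and 102 CPM in KO (log2 change 1.30, SE 0.16). For each chain WT replicate 1 was above WT replicate 2, and KO replicate 2 was the highest. Every KO library was above both WT libraries for each chain, as for 17.6% of all genes tested. By edgeR 1 of the 3 (C1qc) was called higher, where 0.228% of all genes were. Per length, the ratio of C1qa to C1qb was 1.14 and 1.15 in WT and 1.11, 1.06 and 1.11 in KO, slightly lower in every KO library, while the level of each chain differed by more than 2-fold between the groups. The ratio of C1qc to C1qb was 0.594 and 0.649 in WT and 0.589, 0.584 and 0.616 in KO, with overlap.

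Genes of red pulp macrophages were higher in KO as a group. All 8 were higher in every KO library, where 17.6% of all genes tested were. Their log2 changes ran from 0.97 to 1.33, with a median of 1.17. By edgeR 1 (Adgre1) was called higher, where 0.228% of all genes were. Adgre1, which codes for the surface protein F4/80, was at 30.2 and 27.1 CPM in WT and at 53.6, 68.6 and 65.5 CPM in KO (log2 change 1.13, SE 0.12). Vcam1, an adhesion molecule that binds the integrin α4β1, was at 154 and 95.95 CPM in WT and at 233, 358 and 319 CPM in KO (log2 change 1.28, SE 0.25). Itgad, the integrin αD subunit, was at 57.8 and 33.01 CPM in WT and at 92.3, 122 and 100.1 CPM in KO. In Vcam1 and Itgad the WT libraries stood far apart, and KO replicate 1 was the KO library nearest to them.

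Genes for soluble proteins of these cells were higher in KO too. Cd5l, a secreted scavenger-receptor protein of tissue macrophages, was at 33.6 and 28.8 CPM in WT and at 64.4, 95.3 and 75.01 CPM in KO (log2 change 1.33, SE 0.18). Fcna, ficolin A, a lectin that starts the lectin pathway of complement, was at 50.1 and 32.3 CPM in WT and at 94.4, 106 and 90.04 CPM in KO (log2 change 1.23, SE 0.19). For both, all KO libraries were above both WT libraries and KO replicate 2 was the highest. The remaining red pulp genes were Treml4, a receptor of the TREM family (log2 change 1.09, SE 0.20), Hpgd, the enzyme that breaks down prostaglandins (0.97, SE 0.16), and Mrc1, the mannose receptor (0.97, SE 0.20).

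Of the marginal zone genes, 2 of 3 were higher in every KO library, where 17.6% of all genes tested were. By edgeR 0 of the 3 were called, where 0.228% of all genes were called higher. The KO libraries stood in another order than for red pulp genes. Marco was at 28.04 and 20.8 CPM in WT and at 55.1, 35.2 and 48.7 CPM in KO (log2 change 0.92, SE 0.22). Siglec1 was at 5.21 and 4.299 CPM in WT and at 9.19, 6.04 and 7.37 CPM in KO (log2 change 0.66, SE 0.22). For both genes the groups did not overlap, KO replicate 1 was the highest and KO replicate 2, the highest for all 8 red pulp genes, was the lowest of the KO libraries. Msr1, the class A scavenger receptor 1, was at 0.495 and 0.921 CPM in WT and at 0.8999, 0.836 and 0.622 CPM in KO, which overlap. Its log2 change of 0.16 (SE 0.39) was below 0 without WT replicate 1, at −0.23.

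Monocyte genes were the most divided role, with log2 changes from −0.29 to 1.66 and a median of 0.54. Ccr2, the receptor for the chemokine CCL2 on classical monocytes and on some activated T cells, was at 28.7 and 32.7 CPM in WT and at 23.9, 30.1 and 21.2 CPM in KO (log2 change −0.29, SE 0.16). Ly6c2, the Ly6C antigen, which some T cells carry too, was at 11.1 and 19.997 CPM in WT and at 15.8, 19.4 and 13.6 CPM in KO (log2 change 0.07, SE 0.27). Both overlapped between the groups, and Ly6c2 was below 0 without WT replicate 1 (−0.30) or without KO replicate 2 (−0.08). Lyz2 was higher in every KO library by a modest amount, at 129 and 115 CPM in WT and 179, 152 and 159.5 CPM in KO (log2 change 0.42, SE 0.09). Csf2ra, the α chain of the GM-CSF receptor, was at 20.4 and 19.96 CPM in WT and 29.8, 28.6 and 24.8 CPM in KO (log2 change 0.46, SE 0.10). These smaller differences stand beside the larger ones of the receptors that follow.

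The highest fold of all 35 genes was that of Fcgr4, which codes for FcγRIV, a receptor for IgG on patrolling monocytes and macrophages. It was at 2.97 and 2.76 CPM in WT and at 8.92, 10.5 and 7.86 CPM in KO, a fold of 3.17 (log2 change 1.66, SE 0.18). Clec12a, an inhibitory lectin of myeloid cells, was at 5.48 and 4.299 CPM in WT and at 10.1, 14.1 and 9.89 CPM in KO (log2 change 1.21, SE 0.22). Cd14, the co-receptor for lipopolysaccharide, was at 5.38 and 4.34 CPM in WT and at 7.28, 14.6 and 11.6 CPM in KO (log2 change 1.20, SE 0.30). Neither WT library reached any KO library for these genes, though KO replicate 1 was close to WT for Cd14. Cx3cr1, the fractalkine receptor of patrolling monocytes, was at 3.07 and 4.07 CPM in WT and at 7.12, 4.52 and 4.78 CPM in KO (log2 change 0.62, SE 0.26), and its gene span overlaps 5 other genes. Csrnp1, 1 of these on the same strand, had 30407 counts over all libraries against 646 for Cx3cr1, so the assignment of Cx3cr1 reads is uncertain.

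The mean log2 level of the monocyte role, less that of the red pulp role, was −1.81 and −1.24 in WT and −1.86, −2.08 and −2.16 in KO. The difference between the groups was −0.51, with all KO libraries below both WT libraries, and KO replicate 1 was only just below WT replicate 1. It was −0.79 without WT replicate 1 and −0.23 without WT replicate 2. Set per length against Adgre1 in the same library, Ccr2 was at 0.483 and 0.614 in WT and at 0.226, 0.223 and 0.164 in KO. The ratio of Lyz2 to Adgre1 was 10.98 and 10.9 in WT and 8.54, 5.69 and 6.24 in KO. The ratio of Cd68 to Adgre1 was 1.49 and 1.54 in WT and 1.63, 1.48 and 1.30 in KO, with overlap. The ratio of KO to WT mean summed CPM was 2.48 for the C1q genes, 2.30 for red pulp, 2.08 for shared, 1.98 for Fc receptor, 1.83 for marginal zone and 1.32 for monocyte genes. Lyz2 and Ccr2 took a smaller place beside F4/80 transcripts in every KO library, while Cd68 did not. The monocyte role was divided in this respect. Beside the log2 change of Adgre1 (1.13), those of Fcgr4, Clec12a and Cd14 were larger (1.66, 1.21 and 1.20). Those of Cx3cr1, Csf2ra, Lyz2, Ly6c2 and Ccr2 were smaller (0.62, 0.46, 0.42, 0.07 and −0.29).

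**Figure D3:**
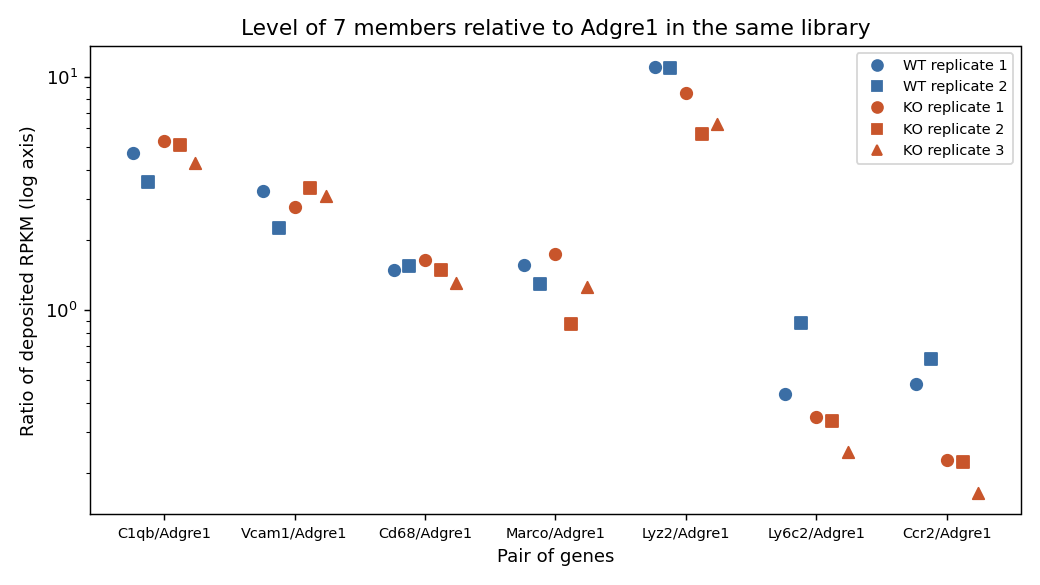
Ratio of deposited RPKM of 7 genes to that of Adgre1 in the same library (y axis, log axis), by pair of genes on the x axis; blue is WT, orange KO, and marker shapes are replicates. Ratios for C1qb, Vcam1, Cd68 and Marco overlap between the groups, and those for Lyz2, Ly6c2 and Ccr2 are lower in every KO library, with Ccr2 at 0.483 and 0.614 in WT and 0.164 to 0.226 in KO.

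Among Fc receptors for IgG and their adaptors, Fcgr4 (listed under the monocyte role), Fcgr3 and Fcer1g lie on chromosome 1 between 171018920 and 171234365 (GRCm38). Fcgr1 lies on chromosome 3 and Tyrobp on chromosome 7. The Fc receptor and adaptor role holds Fcgr1, Fcgr3, Fcer1g and Tyrobp. All 4 were higher in every KO library, where 17.6% of all genes tested were. Their median log2 change was 1.14, and edgeR called 0 of them, where it called 0.228% of all genes higher. Fcgr1, the high-affinity receptor FcγRI, was at 2.705 and 1.61 CPM in WT and at 5.16, 6.99 and 4.94 CPM in KO (log2 change 1.39, SE 0.29). Fcgr3, the activating receptor FcγRIII, was at 12.8 and 9.02 CPM in WT and at 19.8, 31.2 and 23.2 CPM in KO (log2 change 1.18, SE 0.24). Fcer1g, the γ chain through which these receptors signal, was at 17.4 and 13.2 CPM in WT and at 32.7, 38.6 and 27.99 CPM in KO (log2 change 1.11, SE 0.18). Tyrobp, the adaptor DAP12, was at 27.2 and 25.5 CPM in WT and at 43.2, 51.2 and 39.9 CPM in KO (log2 change 0.77, SE 0.12). Fcgr2b, the inhibitory IgG receptor, which B cells express too and which was picked for its likeness to Fcgr3, was at 53.1 ± 12.95 CPM in WT (SD, n = 2) and 49.3 ± 11.1 CPM in KO (SD, n = 3), with overlap. Transcripts of Fcgr3 and Fcgr2b are 96.3% identical over 512 bases, and how their reads were divided is uncertain.

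Of the genes that macrophages and monocytes share, all 9 were higher in every KO library, where 17.6% of all genes tested were. Their log2 changes ran from 0.78 to 1.38. By edgeR 5 of the 9 were called higher, where 0.228% of all genes were. Csf1r, the receptor for the growth factor CSF1 on which most macrophages depend, was at 138 and 92.1 CPM in WT and at 268, 351 and 282 CPM in KO (log2 change 1.38, SE 0.20). Cd68, a lysosomal membrane protein, was at 17.4 and 16.1 CPM in WT and at 33.8, 39.3 and 33.1 CPM in KO (log2 change 1.08, SE 0.11). Sdc3, a heparan sulphate proteoglycan, was at 70.6 and 63.1 CPM in WT and at 136, 166 and 141 CPM in KO (log2 change 1.14, SE 0.11). In Cd68 and Sdc3 the libraries of 1 group lay close together beside the distance between the groups. Aif1, the actin-binding protein IBA1, was at 6.201 and 5.37 CPM in WT and at 13.5, 12.05 and 12.4 CPM in KO (log2 change 1.13, SE 0.13). Cebpa, a myeloid transcription factor, was at 19.9 and 18.1 CPM in WT and at 31.6, 35.6 and 34.5 CPM in KO (log2 change 0.83, SE 0.09). The remaining shared genes were higher by less than 2-fold, namely Tgm2, transglutaminase 2 (1.84-fold), Sirpa, the receptor for CD47 (1.82-fold), Ms4a7 (1.74-fold) and Mpeg1, perforin-2 (1.72-fold). The gene spans of Csf1r and Tgm2 overlap Hmgxb3 and Rprd1b on the other strand, so part of their reads could come from the other gene if strand was ignored.

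**Figure D4:**
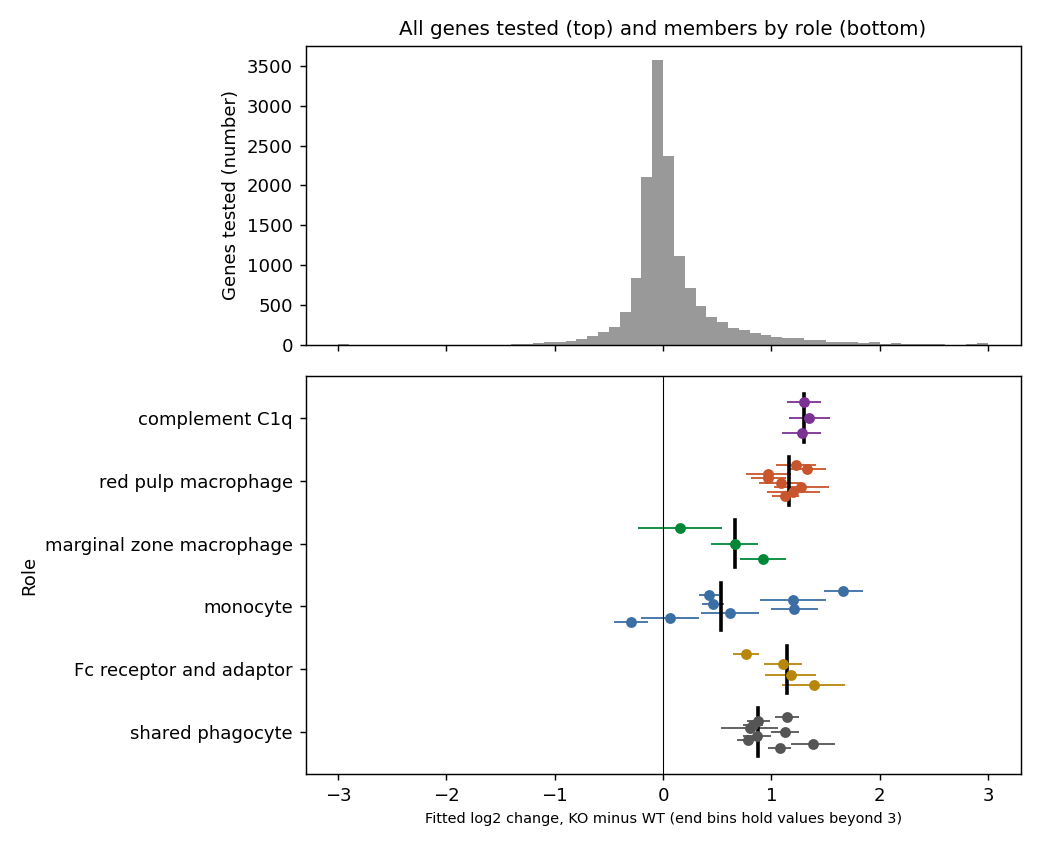
Fitted log2 changes, KO minus WT (x axis): the top panel is a histogram of all 14460 genes tested (y axis, number of genes), and the bottom panel shows the 35 genes by role with the SE of the fit as bars and the median of each role as a black line. The C1q, red pulp and Fc receptor roles centre on medians of 1.30, 1.17 and 1.14, while the monocyte role runs from −0.29 to 1.66.

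Other genes of the same cells, outside the 35, were read in the same way. All 9 of the other red pulp genes were above both WT libraries in every KO library, where 17.6% of all genes were, with a median log2 change of 1.13. Among the most abundant, Axl, a receptor for apoptotic cells, was at 134 and 89.4 CPM in WT and 213, 238 and 228 CPM in KO. Hmox1, the haem-degrading enzyme, was at 102 and 52.1 CPM in WT and 155, 181 and 188 CPM in KO. For both genes WT replicate 1 was well above WT replicate 2. By edgeR 0 of the 9 were called. All 9 were higher at an unadjusted p under 0.05, where 10.7% of all genes were, and 8 were called higher by DESeq2, where 5.62% of all genes were. The edgeR count was 5 without KO replicate 1, 8 with no filter and 9 with scaling to the pan-T cell genes. It was 2 without immunoglobulin, T cell receptor, haemoglobin and mitochondrial genes. It stayed at 0 with DESeq2 size factors, a mean count of at least 50 or the replicate number as a block. Without KO replicate 2 or KO replicate 3 it was 0 too. Of the 4 tested other marginal zone genes (of 6 listed) 0 were called by edgeR or DESeq2 and 1 was higher at an unadjusted p under 0.05, against the same 10.7% of all genes, with a median log2 change of 0.42. Cd209b was between 1.65 and 2.28 CPM in WT and between 2.05 and 5.09 CPM in KO, and Cd209g was at 0 counts in every library.

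Of the 9 other monocyte genes tested, 5 had a log2 change above 0 and 4 below it (median 0.11). By edgeR 1 was called, 3 had an unadjusted p under 0.05 and 2 were called by DESeq2, all higher in KO. Of all genes tested, 0.228%, 10.7% and 5.62% were higher by these 3 measures. Cd300e, an activating receptor of patrolling monocytes, rose from 2.41 and 2.46 CPM in WT to 8.26, 8.59 and 6.19 CPM in KO (log2 change 1.66, SE 0.20, adjusted p = 0.0495 by edgeR). This call was lost without WT replicate 1, WT replicate 2, KO replicate 2 or KO replicate 3 (edgeR adjusted p from 0.0714 to 0.158) and was kept without KO replicate 1 (0.0306). It was also lost with DESeq2 size factors (edgeR adjusted p = 0.0515) and with a mean count of at least 50 (edgeR adjusted p = 0.0560). Ace, Plac8 and Chil3 were chosen after their values were seen. Ace, the angiotensin-converting enzyme, was at 6.79 and 10.02 CPM in WT and 31.8, 21.5 and 20.4 CPM in KO (log2 change 1.55, SE 0.26, adjusted p = 0.0684 by edgeR). Plac8 and Chil3, which classical monocytes express, overlapped between the groups with log2 changes of −0.32 (SE 0.20) and −0.02 (SE 0.52). The rest of the list went both ways. F13a1 and Pglyrp1 were above both WT libraries in every KO library, with log2 changes of 0.47 (SE 0.25) and 0.26 (SE 0.10). Fn1 was below both WT libraries in every KO library, at −0.75 (SE 0.32). Ms4a6c and Vcan overlapped, at 0.11 (SE 0.17) and −0.28 (SE 0.44).

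Factors that drive macrophage genes were uneven. Of 8 tested, 0 were called by edgeR, 3 were higher at an unadjusted p under 0.05 and 3 were called higher by DESeq2 (median log2 change 0.57). Of all genes, 0.228%, 10.7% and 5.62% were higher by these 3 measures. Cebpb, a C/EBP factor of myeloid cells, was at 59.6 and 64.9 CPM in WT and 77.7, 67.3 and 65.9 CPM in KO. Its KO libraries were all above WT, KO replicate 3 only just (log2 change 0.18, SE 0.09, adjusted p = 0.412 by edgeR). Spi1, which codes for PU.1 and is expressed in B cells too, was at 47.8 and 73.7 CPM in WT and 72.7, 67.96 and 67.9 CPM in KO, with overlap. Irf8, likewise shared with B cells, was at 247 ± 37.2 CPM in WT (SD, n = 2) and 271 ± 4.36 CPM in KO (SD, n = 3). Spi1 and Irf8 were higher in WT replicate 2, the WT library with more B cell transcripts, whose part in these values was not tested.

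Partners of these proteins were counted against the shares of all genes given above for each test. Of 11 tested complement components and receptors, 0 were called by edgeR, 2 higher and 1 lower had an unadjusted p under 0.05, and 1 was higher by DESeq2 (median 0.26). C1qbp, a mitochondrial protein that can bind C1q, was at 96.8 ± 0.242 CPM in WT (SD, n = 2) and 91.4 ± 6.005 CPM in KO (SD, n = 3). The proteases that complete the C1 complex, C1ra and C1s1, chosen after their values were seen, had at most 32 and 15 counts in any library, against at least 832 counts for each C1q chain. Of 10 tested genes of Fc receptor and DAP12 signalling, 0 were called by edgeR, 2 had an unadjusted p under 0.05 and 1 was called by DESeq2, all higher in KO (median 0.34). Of 7 tested ligands and partner integrins, 0 were called by edgeR or DESeq2 and 0 had an unadjusted p under 0.05 (median 0.07). The CSF1R ligands were picked for their partner among the 35. Csf1 was at 35.9 ± 3.76 CPM in WT (SD, n = 2) and 39.1 ± 2.94 CPM in KO (SD, n = 3), and Il34 was at 0 counts in every library.

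**Figure D5:**
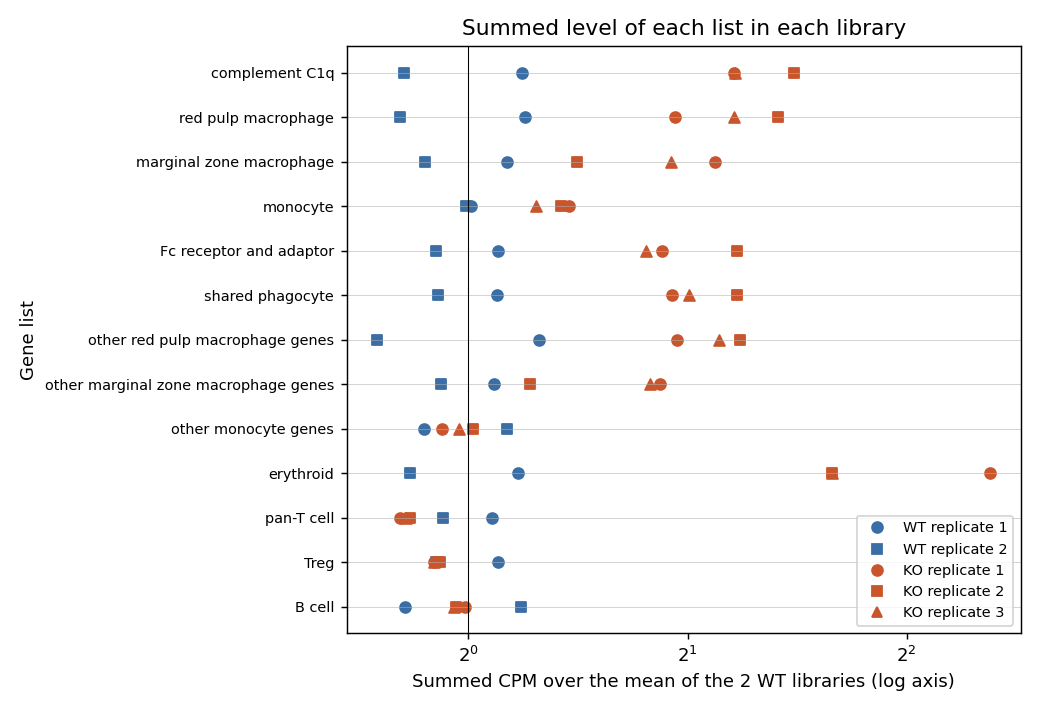
Summed CPM of each gene list in each library, over the mean of the 2 WT libraries (x axis, log axis with base 2), with lists on the y axis; blue is WT, orange KO, and marker shapes are replicates. The C1q, red pulp, shared phagocyte and erythroid sums are higher in every KO library, the other monocyte and B cell sums overlap, and the pan-T cell sum, scaled to library size, is lower in every KO library.

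Markers of further cell types are given for comparison. The 10 neutrophil markers summed to 128 and 165 CPM in WT and to 231, 232 and 78.2 CPM in KO, so KO replicate 3 was below both WT libraries. The 10 dendritic cell markers summed to 43.2 and 47.4 CPM in WT and to 48.8, 57.4 and 54.0 CPM in KO. By edgeR 0 genes of these lists were called, as by DESeq2. At an unadjusted p under 0.05, 1 of 10 neutrophil and 4 of 9 tested dendritic cell markers were higher in KO, where 10.7% of all genes were. For 5 of the 9 dendritic cell markers every KO library was above both WT libraries, where 17.6% of all genes tested were. The median log2 change of the dendritic cell markers was 0.42. Platelet markers summed to 15.8 and 11.1 CPM in WT and 24.5, 17.6 and 24.9 CPM in KO. Markers of NK and CD8 T cells summed to 111 and 97.8 CPM in WT and 79.7, 102 and 86.1 CPM in KO, and endothelial and stromal markers to 168 and 157 CPM in WT and 151, 161 and 148 CPM in KO. By edgeR 0 genes of these 3 lists were called, with 2 platelet markers and 1 endothelial or stromal marker higher and 2 NK or CD8 and 1 endothelial or stromal marker lower at an unadjusted p under 0.05. DESeq2 called 1 platelet and 1 endothelial or stromal marker higher and 1 NK or CD8 marker lower. Tested were 8 platelet, 9 NK or CD8 and 7 endothelial or stromal markers. Of all genes, 10.7% were higher and 5.62% lower at that unadjusted p, and DESeq2 called 5.62% higher and 1.45% lower.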

How the data were processed

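RNA was sequenced after depletion of ribosomal RNA, per the labels' protocols, from 2 WT and 3 KO libraries. The submitters' processing notes name Trimmomatic 0.36, STAR 2.5.2b and the GRCm38 build, with no order or role. How reads were counted, on which annotation and with which strand setting, is not given in the sources used here. The authors deposited whole-number counts per gene, used for all tests, and RPKM values (per gene length and a library total other than the summed counts), used to compare levels between genes. The deposited TPM values were used only for sums over genes. A further deposited column per library, named CPM, does not sum to a fixed total, so it was treated as a score and not used. Library columns were matched by the codes in the labels, with 0 columns unmatched.

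Low genes were removed with filterByExpr. The rest were scaled with TMM factors and compared between genotypes, with no other term, by the quasi-likelihood test of edgeR 4.0.16 (R 4.3.3), with Benjamini-Hochberg adjustment over 14460 genes and a false discovery rate of 0.05. Each SE was taken from the F statistic (the log2 change over its root), and log2 CPM used a prior count of 2. DESeq2 1.42.0 was an alternative. The biological coefficient of variation was 13.1%, and no pair of libraries of a group was close enough to be 1 library deposited again (chi-square over degrees of freedom 16.5 to 39.1). Copies were sought among transcripts with blastn 2.17.0 (at least 90% identity over 200 bases). All 35 gene identifiers were found in GENCODE M21 as protein-coding.

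The members, roles, lists and tests were chosen with earlier results of these data known. All members could be named. Of other lists, called genes and otherwise up to 4 of the most abundant were named, of marker lists up to 3, with exceptions stated. Of the lists, 1 gene was not used here. A result on 1 further gene is not reported here.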

Additional observations from a re-analysis of the deposited data

How the results depend on the processing

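Of the 35 genes only Msr1 and Ly6c2 turned in any alternative fitted, whereas the number of calls varied widely. With scaling to 14 pan-T cell genes, no filter, the DESeq2 Wald test, a false discovery rate of 0.10, or without immunoglobulin, T cell receptor, haemoglobin and mitochondrial genes, 30, 27, 29, 27 and 16 of the 35 were called higher in KO, among 1270, 519, 812, 497 and 103 genes in all, and 26, 70, 210, 82 and 15 genes were called lower. With a mean count of at least 50 there were 5 of 33 tested members among 18 genes called higher, and 5 genes were called lower. With 1 library left out, 0 to 18 members, 0 to 319 genes higher and 1 to 24 genes lower were called. Where edgeR called 0 members, at least 29 had an unadjusted p under 0.05. With the replicate number as a block 0 members were called, 30 had an unadjusted p under 0.05, and 27 genes were called higher and 5 lower. The Cd300e call was lost with that block (edgeR adjusted p = 0.0723). The labels do not pair the samples, with 2 numbers shared, and same-numbered deviations had a correlation of 0.03 over genes. DESeq2 size factors gave 6 members.

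The median log2 change of the members was 1.38 with pan-T cell scaling, which moved the median of all genes from −0.01 to 0.26, and 0.86 to 1.23 with 1 library left out. The difference between monocyte and red pulp roles ranged from −0.79 to −0.23 with 1 library left out. With 1 library left out, Msr1 ran from −0.23 (without WT replicate 1) to 0.66 and Ly6c2 from −0.30 (without WT replicate 1) to 0.55 (both without WT replicate 2), and Ly6c2 was −0.08 without KO replicate 2. The cause was not tested.

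With 2 WT libraries, a fit without 1 of them assumes that the other varies like KO. Genes near 1 CPM support only large differences. Ly6c2 shares 97.6% identity over 822 bases with Ly6c1, and Lyz2 95.8% over 1264 bases with Lyz1.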
